A study of Mus musculus with 16 samples.

Results

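The genes described here make bile acids in the liver, join them to amino acids and move them across the hepatocyte membrane. They are 10 genes of the 18193 measured, chosen by name from the pathway, with no rule on their measured values: Cyp7a1, Cyp8b1, Cyp27a1, Akr1d1, Hsd3b7, Baat, Slc27a5, Abcb11, Abcb4 and Slc10a1. These genes were chosen with earlier results of these data known. The array carried 15 probe sets for them among the 34945 that were annotated to a single gene, and each of the 10 had at least 1. Liver RNA of 16 male mice aged 12 to 20 weeks was measured on whole-genome Affymetrix mouse arrays, 1 mouse per array. PPARα-null mice of the 129S4/SvJae substrain received food with 0.1% Wy14643, a synthetic PPARα agonist, by weight (4 mice) or normal food (4 mice). Wild-type mice of the 129S1/SvImJ substrain received the same foods, again with 4 mice each, and feeding lasted 5 days in all groups. The substrain differed together with the genotype, so that a difference between null and wild-type mice cannot be told apart from a substrain difference. Values are log2 of the deposited intensity, with the SD over 4 mice, and a gene was called when the limma adjusted p was below 0.01 and the fold change above 1.5. A gene was represented by its brightest probe set.

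Bile acids are made from cholesterol by a chain of enzymes in hepatocytes. The classical route opens with Cyp7a1, its rate-limiting enzyme, and Cyp8b1 directs the products towards cholic acid. Hsd3b7 and Akr1d1 reshape the sterol rings, Cyp27a1 oxidizes the side chain in mitochondria, and Slc27a5 and Baat couple the acid to coenzyme A and then to taurine or glycine. Abcb11, the bile salt export pump, sends the conjugates into the bile canaliculus, and Abcb4 brings phosphatidylcholine to the outer leaflet of that membrane, which protects it from the detergent action of bile salts. Slc10a1, the sodium-dependent transporter Ntcp, sits on the opposite (sinusoidal) face and takes bile salts back up from the blood. PPARα is a nuclear receptor that binds DNA with RXR at repeats of the hexamer AGGTCA spaced by 1 base, and several other receptors of bile acid metabolism read the same hexamer.

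The 250 bases before the transcription start are shown for the genes with the largest responses, Akr1d1 and Abcb11, for the uptake transporter Slc10a1 and for Abcb4, the gene that moved the other way. They come from RefSeq on the build GRCm38.p6, a reference strain other than the substrains used here, and run 5′ to 3′ in the direction of the gene. Capitals mark AGGTCA or its reverse complement. The windows are chr6:37529923-37530172 on the plus strand for Akr1d1, chr2:69342617-69342866 on the minus strand for Abcb11, chr12:80968080-80968329 on the minus strand for the start of Slc10a1 that holds the hexamer, and chr5:8893471-8893720 on the plus strand for Abcb4.
Akr1d1: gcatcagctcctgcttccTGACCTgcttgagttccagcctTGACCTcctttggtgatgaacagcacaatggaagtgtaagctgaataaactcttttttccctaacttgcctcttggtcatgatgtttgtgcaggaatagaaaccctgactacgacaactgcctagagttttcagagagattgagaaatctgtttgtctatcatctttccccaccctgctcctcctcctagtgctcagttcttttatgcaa
Abcb11: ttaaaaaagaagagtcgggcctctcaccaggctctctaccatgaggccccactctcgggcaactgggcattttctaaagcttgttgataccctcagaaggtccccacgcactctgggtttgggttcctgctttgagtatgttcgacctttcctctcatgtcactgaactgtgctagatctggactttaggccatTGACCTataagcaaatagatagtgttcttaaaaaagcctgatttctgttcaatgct
Slc10a1: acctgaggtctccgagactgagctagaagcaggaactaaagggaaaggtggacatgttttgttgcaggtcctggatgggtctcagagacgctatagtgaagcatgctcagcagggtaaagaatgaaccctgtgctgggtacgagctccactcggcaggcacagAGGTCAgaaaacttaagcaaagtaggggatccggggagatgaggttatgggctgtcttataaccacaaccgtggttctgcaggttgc
Abcb4: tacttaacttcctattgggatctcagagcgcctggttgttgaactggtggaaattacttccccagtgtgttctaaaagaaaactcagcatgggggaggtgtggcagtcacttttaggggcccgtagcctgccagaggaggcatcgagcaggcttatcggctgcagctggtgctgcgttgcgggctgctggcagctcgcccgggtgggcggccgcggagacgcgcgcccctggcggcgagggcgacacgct
The promoter table held 7 of the 10 genes in 8 entries, since Slc10a1 had 2 starts, and did not list Cyp7a1, Baat or Slc27a5. On either strand, AGGTCA lay in 3 of the 8 entries (37.5%), against 14.0% of all 32851 promoters of the same length. It stood from 232 to 227 and from 210 to 205 bases before the start of Akr1d1, and from 56 to 51 bases before that of Abcb11, each on the opposite strand. In Slc10a1 it stood from 87 to 82 bases before the start, on the strand of the gene. The hexamer was absent from Cyp27a1, which also fell on Wy14643, and from the other start of Slc10a1. It was absent from Abcb4, Cyp8b1 and Hsd3b7 too. A direct repeat of AGGTCA with any 1 base between was in 0 of the 8 entries and in 0.0335% of all promoters, and an inverted repeat with 1 base between in 0 of the 8 and in 0.00609%. The extended form CAAGGTCA, which overlaps the hexamer, was in 0 of the 8 entries and in 1.33% of all. These are matches of letters in a short window, not sites.

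On Wy14643, most of the 10 genes fell in wild-type livers. Akr1d1, Abcb11, Cyp27a1, Baat, Slc10a1 and Slc27a5 fell and Abcb4 rose, which made 7 of the 10 genes called (6 lower, 1 higher), against 14.5% of all genes called in that comparison (6.74% lower and 7.72% higher). Cyp7a1, Cyp8b1 and Hsd3b7 were not called. All 10 genes had a mean above 6. When only the 8355 probe sets with such a mean were fitted, 2417 of them were called in that comparison, and 7 of the 10 genes. Mice on the 2 foods did not overlap for 8 of the 10 genes, which is all but Cyp7a1 and Cyp8b1, against 29.1% of all genes. The median log2 difference of the 10 genes was -0.95, and that of all genes was -0.03. In PPARα-null livers 0 of the 10 were called, against 0.0275% of all genes, and 3 had an unadjusted p below 0.05, against 10.3% of all genes. Null mice on the 2 foods did not overlap for 2 of the 10 (Cyp8b1 and Abcb11), against 6.38% of all genes. Their median difference in null livers was -0.05, against 0.01 for all genes. The difference between the responses (null minus wild-type) was itself called for the same 7 genes, 6 with a positive value (4.62% of all genes) and 1 with a negative one (5.38% of all genes).

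**Figure D1:**
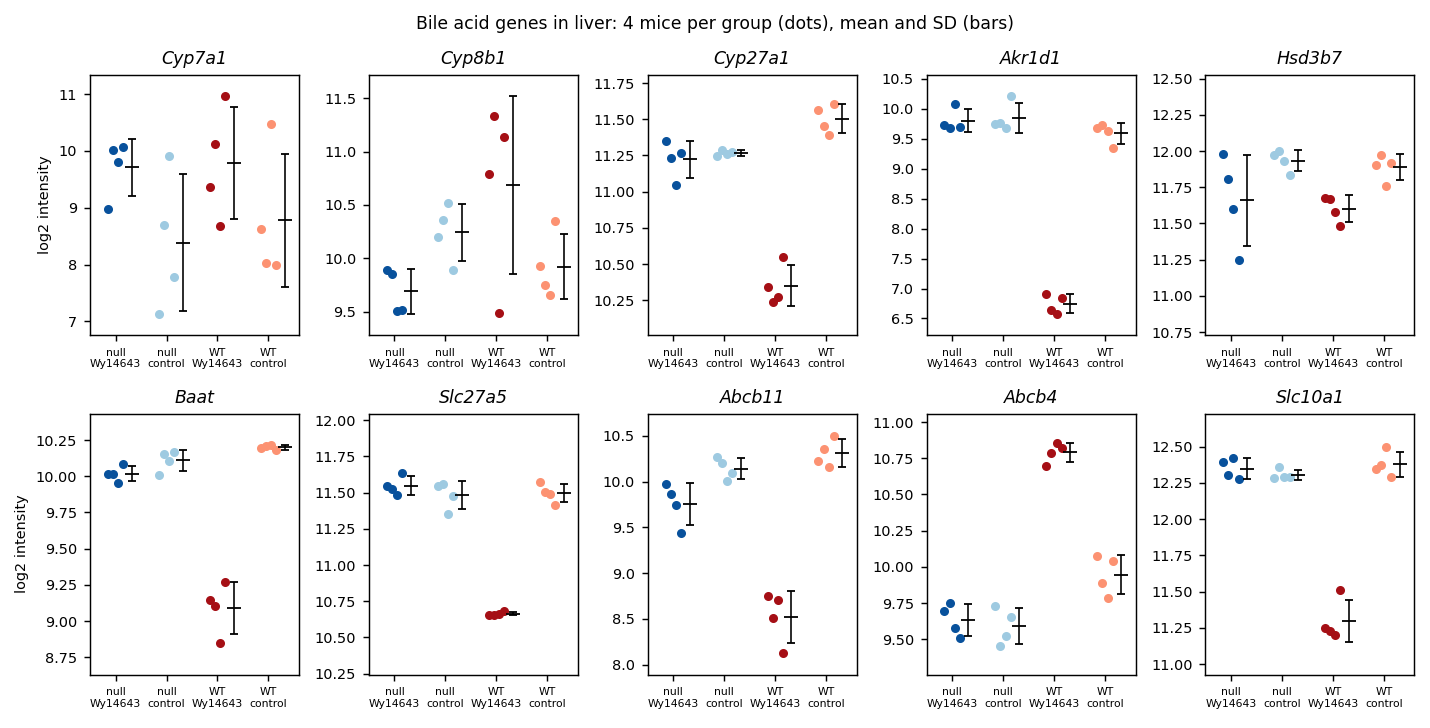
Log2 intensity (vertical axis, own range in each panel) of the 10 genes in every mouse, as dots, with the mean and SD of 4 mice beside them. From left to right stand PPARα-null mice on Wy14643 and on control food and wild-type mice on Wy14643 and on control food. In 7 panels the 4 wild-type mice on Wy14643 lie apart from the 12 others, and in Cyp7a1, Cyp8b1 and Hsd3b7 they do not.

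The arrays hold RNA of whole liver, in which fewer cells of a type and less RNA per cell cannot be told apart. The summed intensity of 9 hepatocyte markers was 66300 to 69600 in null mice on Wy14643, 66330 to 68800 in null mice on control food, 55630 to 61280 in wild-type mice on Wy14643 and 66760 to 68650 in wild-type mice on control food, and 1 of the 9 was called lower in the wild-type response. In that response 6.74% of all genes were called lower and 7.72% higher, shares that apply to each marker list here. Of the Kupffer cell markers, 8 of 10 were called lower in the wild-type response, and their sums were 1123 to 1520 and 1288 to 1601 in null mice on Wy14643 and control food, and 614.2 to 775.2 and 1115 to 1352 in wild-type mice on Wy14643 and control food. Stellate cell markers were lower for 4 of 10, with sums in the same order of 2946 to 3490, 2870 to 3285, 1790 to 2019 and 2697 to 2939. Endothelial markers were lower for 2 of 10 and higher for 1, with sums of 1399 to 1715, 1326 to 1524, 1130 to 1240 and 1413 to 1639. Of 8 cholangiocyte markers 0 were called, their sums were 171.4 to 320.2, 157.6 to 263.1, 135.4 to 167.7 and 218.0 to 246.2, and the defining ones Krt19 and Krt7 were among 5 whose mean did not exceed the highest array median. The part of these cell type markers in the results was not tested. The 3′ minus 5′ signal of the Actb control, a measure of RNA quality, was 0.99 to 1.37 on the log2 scale in all arrays, and that of Gapdh -0.05 to 0.12 (exact permutation p of 0.114 or more in 8 tests, where 4 against 4 allows 0.0286). Ppara itself still gave signal in null livers, with 9.63 ± 0.30 on Wy14643 and 9.29 ± 0.39 on control food, against 10.78 ± 0.06 and 9.92 ± 0.13 in wild-type livers (log2, SD, n = 4). In null livers this probe set was called lower on Wy14643 (-1.15, limma adjusted p = 5.10e-05) and not on control food (-0.63, adjusted p = 0.140). The other probe sets of Ppara were called lower in null livers on both foods, 1449051_at with a difference of -1.43 on Wy14643 (adjusted p = 1.94e-07) and -1.38 on control food (adjusted p = 9.68e-06), and 1457721_at with -2.20 (adjusted p = 3.95e-08) and -1.59 (adjusted p = 5.90e-05).

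Cyp7a1, which sets the pace of the classical route, varied too much between mice for its response to be resolved. In PPARα-null livers it measured 8.98, 10.01, 9.81 and 10.06 on Wy14643, and 7.14, 8.70, 9.91 and 7.79 on control food. Wild-type livers gave 9.37, 10.12, 8.68 and 10.96 on Wy14643, and 8.63, 8.03, 10.48 and 7.999 on control food. The groups overlapped in both genotypes, and the third control mouse was the highest of its group in each. The difference on Wy14643 was 1.33 ± 0.60 (SE) in null livers (95% interval 0.06 to 2.61, limma adjusted p = 0.525) and 1.001 ± 0.60 in wild-type livers (-0.28 to 2.28, adjusted p = 0.302). Both intervals were wide and neither difference was called. The wild-type difference was 0.609 without replicate 4 on Wy14643 and 1.566 without replicate 3 on control food. The pooled SD within groups was 1.003, larger than that of 99.8% of the 8355 probe sets with a mean above 6, and the other probe set of the gene, 1422100_at, gave 1.19. That probe set had differences of 1.71 in null livers (adjusted p = 0.477) and 1.08 in wild-type livers (adjusted p = 0.354). The responses differed by 0.33 (adjusted p = 0.878, 95% interval -1.47 to 2.13).

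Clock genes give many liver transcripts a daily rhythm, and Cyp7a1 is known for one. Ciart, a repressor of the clock, rose in both genotypes: it measured 5.56, 5.92, 5.85 and 6.56 in null livers on Wy14643, and 2.66, 2.53, 2.88 and 3.20 on control food (difference 3.16, limma adjusted p = 2.95e-04). The wild-type values were 5.27, 5.48, 5.69 and 5.69 on Wy14643, and 3.47, 3.40, 4.69 and 2.65 on control food (difference 1.98, adjusted p = 1.16e-04). Arntl, the activator also known as Bmal1, measured 2.88, 2.04, 1.60 and 1.75 in null livers on Wy14643, and 6.23, 5.82, 3.73 and 4.63 on control food (adjusted p = 0.111, not called). In wild-type livers it fell to 1.90, 2.05, 1.46 and 1.65 on Wy14643, against 6.07, 4.09, 2.23 and 6.08 on control food, at least 2.38 lower on the log2 scale because the Wy14643 mean lay below the highest array median (adjusted p = 0.00516). The third control mouse, with the highest Cyp7a1 of its group, had the lowest Arntl of its group in both genotypes. The groups on Wy14643 did not repeat this. Replicate 3 had the lowest Arntl in both, but its Cyp7a1 was the lowest of the wild-type group (8.68) and not the highest of the null group (9.81). Of 13 clock genes measured, 1 was called in null livers (Ciart), against 0.0275% of all genes. In wild-type livers 3 were called (Ciart and Hlf higher, Arntl lower), against 14.5% of all genes, and the others were not called. The smaller count in null livers does not mean smaller differences. The median of the signed differences of the 13 was 0.681 in null livers and 0.174 in wild-type livers. The genes moved in both directions, so this median does not measure size, and single genes are given instead. Clock differed by -1.271 in null livers and by 0.174 in wild-type livers. Hlf differed by 0.651 in null livers (adjusted p = 0.089) and by 0.615 in wild-type livers (adjusted p = 0.00244). Tef differed by 1.557 and 0.343, while Nr1d1 had the larger difference in wild-type livers (0.141 and -0.948). Dbp, an output gene of the clock, differed by 3.84 in null livers (adjusted p = 0.0922) and by 1.37 in wild-type livers (adjusted p = 0.283). The hour at which these livers were taken is not given in the sources used here, and the part of the clock genes in the values of Cyp7a1 was not tested.

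**Figure D2:**
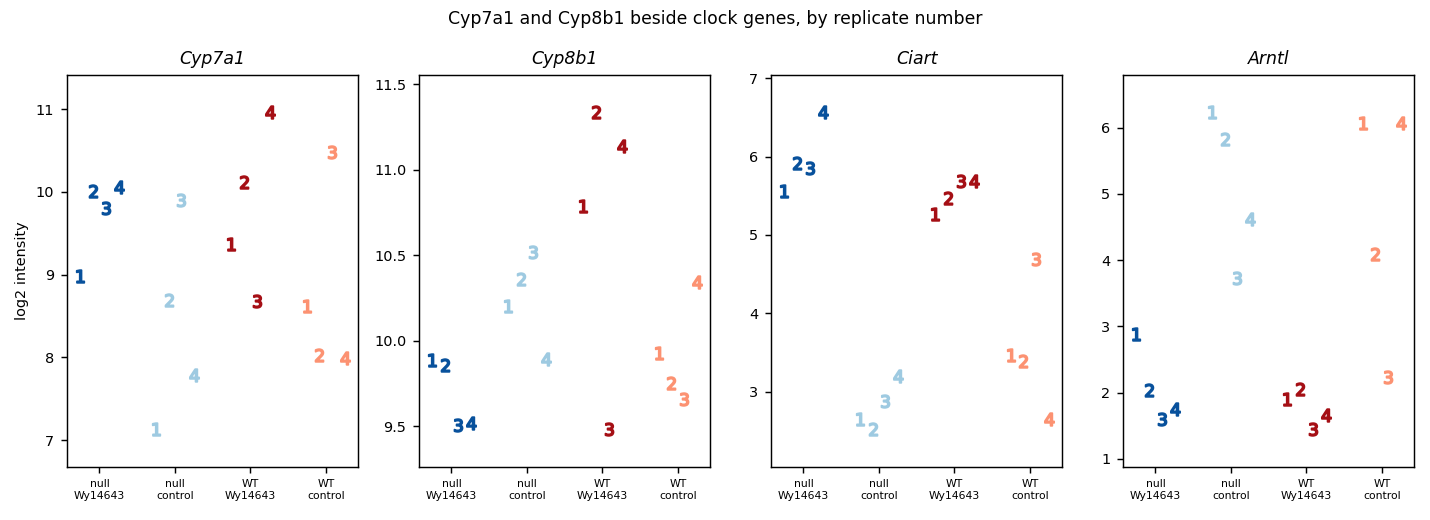
Log2 intensity (vertical axis, own range in each panel) of Cyp7a1, Cyp8b1, Ciart and Arntl, with each mouse drawn as its replicate number. From left to right stand PPARα-null mice on Wy14643 and on control food and wild-type mice on Wy14643 and on control food. Replicate 3 of the wild-type control mice is high in Cyp7a1 and low in Arntl, and replicate 3 of the wild-type mice on Wy14643 is low in Cyp7a1, Cyp8b1 and Arntl.

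Cyp8b1, which decides how much cholic acid is made, had differences of opposite sign in the genotypes and was called in neither. It measured 9.89, 9.86, 9.51 and 9.52 in null livers on Wy14643, and 10.20, 10.36, 10.52 and 9.89 on control food. In wild-type livers the values were 10.79, 11.34, 9.49 and 11.14 on Wy14643, and 9.93, 9.75, 9.66 and 10.35 on control food. Null mice did not overlap between foods, while in wild-type mice the third mouse on Wy14643 lay below all 4 control mice and the other 3 above them. The differences were -0.55 ± 0.29 in null livers (limma adjusted p = 0.599) and 0.77 ± 0.29 in wild-type livers (adjusted p = 0.0787), and they differed from each other by -1.32 (adjusted p = 0.0461, not called). Without wild-type replicate 3 on Wy14643 the wild-type difference was 1.17 and was called (adjusted p = 1.94e-04), and so was the difference between the responses (-1.72, adjusted p = 1.69e-04).

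Among the enzymes that act on the rings, Akr1d1 showed the largest change of the 10 genes. This steroid 5β-reductase measured 9.73, 9.68, 10.09 and 9.70 in null livers on Wy14643, and 9.74, 9.77, 9.67 and 10.21 on control food. In wild-type livers it fell to 6.91, 6.63, 6.58 and 6.84 on Wy14643, against 9.67, 9.73, 9.63 and 9.34 on control food. All 4 wild-type mice on Wy14643 lay far below the 12 other mice. The difference was -0.05 ± 0.13 in null livers (limma adjusted p = 0.954) and -2.85 ± 0.13 in wild-type livers, a 7.20-fold fall (adjusted p = 4.33e-11). The other probe set, 1425771_at, fell by 3.49 on the log2 scale in wild-type livers, 11.2-fold (adjusted p = 5.91e-09), and differed by 0.16 in null livers (adjusted p = 0.896). Hsd3b7, the dehydrogenase of the early ring steps, was not called, although the wild-type groups did not overlap. It ranged from 11.25 to 11.98 in null livers on Wy14643 and from 11.83 to 12.00 on control food, and from 11.48 to 11.68 in wild-type livers on Wy14643 and from 11.76 to 11.98 on control food. Its differences were -0.27 in null livers (adjusted p = 0.523) and -0.29 in wild-type livers (adjusted p = 0.124), and they differed by 0.01 (95% interval -0.36 to 0.38). Without null replicate 4 on Wy14643 the null difference was -0.137.

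Cyp27a1, the mitochondrial hydroxylase of the side chain, fell in wild-type livers. It measured 11.35, 11.23, 11.05 and 11.27 in null livers on Wy14643, and 11.25, 11.29, 11.26 and 11.27 on control food. Wild-type mice had 10.35, 10.24, 10.27 and 10.55 on Wy14643, and 11.56, 11.46, 11.39 and 11.61 on control food. The wild-type groups did not overlap and the null groups did. The difference was -0.04 ± 0.09 in null livers (limma adjusted p = 0.939) and -1.15 ± 0.09 in wild-type livers, 2.22-fold (adjusted p = 4.22e-08). A dim probe set of the gene, 1457665_x_at, lay at 0.83 to 1.58 in all 16 mice, below the array medians, and was not called (-0.31 in wild-type livers, adjusted p = 0.0833).

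Both conjugating enzymes fell in wild-type livers. Slc27a5, the ligase that joins bile acids to coenzyme A, measured 11.55, 11.52, 11.48 and 11.64 in null livers on Wy14643, and 11.54, 11.56, 11.35 and 11.48 on control food. Wild-type livers gave 10.66, 10.65, 10.66 and 10.68 on Wy14643, and 11.57, 11.50, 11.49 and 11.42 on control food. Its spread was among the smallest, with a pooled SD of 0.07 against a median of 0.14 for probe sets with a mean above 6, and the wild-type groups were well separated. The difference was 0.07 ± 0.08 in null livers (limma adjusted p = 0.855) and -0.83 ± 0.08 in wild-type livers, 1.78-fold (adjusted p = 2.79e-07). Baat, the transferase that adds taurine or glycine, measured 10.01, 10.01, 9.96 and 10.09 in null livers on Wy14643, and 10.01, 10.16, 10.11 and 10.17 on control food. The wild-type values were 9.15, 9.10, 8.85 and 9.27 on Wy14643, and 10.20, 10.21, 10.21 and 10.18 on control food. All wild-type mice on Wy14643 were below the 12 others. The difference was -0.09 ± 0.09 in null livers (adjusted p = 0.812) and -1.11 ± 0.09 in wild-type livers, 2.15-fold (adjusted p = 4.66e-08), and the other probe set, 1419001_at, fell by 1.45 on the log2 scale in wild-type livers (adjusted p = 1.27e-08).

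At the canalicular membrane the pump for bile salts and the transporter for phospholipid went opposite ways. Abcb11 measured 9.97, 9.86, 9.74 and 9.44 in null livers on Wy14643, and 10.27, 10.20, 10.01 and 10.09 on control food. In wild-type livers the values were 8.75, 8.51, 8.71 and 8.13 on Wy14643, and 10.22, 10.36, 10.16 and 10.50 on control food. The groups did not overlap in either genotype, and the gap was wider in wild-type mice. The difference was -0.39 ± 0.14 in null livers (limma adjusted p = 0.377, not called) and -1.79 ± 0.14 in wild-type livers, 3.46-fold (adjusted p = 3.10e-08). Abcb4 measured 9.70, 9.75, 9.58 and 9.51 in null livers on Wy14643, and 9.73, 9.46, 9.52 and 9.66 on control food. Wild-type mice had 10.70, 10.79, 10.86 and 10.82 on Wy14643, and 10.07, 9.89, 9.79 and 10.04 on control food. All wild-type mice on Wy14643 lay above the 12 others. The difference was 0.04 ± 0.09 in null livers (adjusted p = 0.942) and 0.84 ± 0.09 in wild-type livers, 1.79-fold (adjusted p = 2.81e-06).

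Slc10a1, the uptake transporter for conjugated bile salts, fell in wild-type livers. It measured 12.39, 12.30, 12.43 and 12.28 in null livers on Wy14643, and 12.28, 12.36, 12.29 and 12.29 on control food. Wild-type livers gave 11.25, 11.23, 11.20 and 11.51 on Wy14643, and 12.34, 12.37, 12.50 and 12.29 on control food. The 4 wild-type mice on Wy14643 were below all others. The difference was 0.05 ± 0.09 in null livers (limma adjusted p = 0.925) and -1.08 ± 0.09 in wild-type livers, 2.11-fold (adjusted p = 4.50e-08), and the other probe set, 1450261_a_at, fell by 0.98 on the log2 scale in wild-type livers (adjusted p = 1.01e-07).

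**Figure D3:**
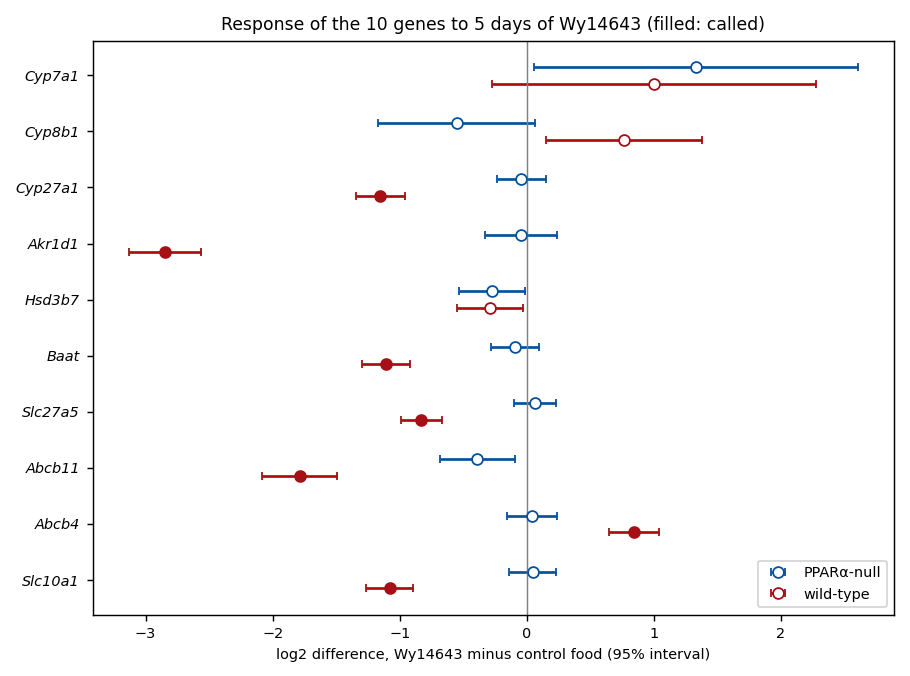
Log2 difference between Wy14643 and control food (horizontal axis) with its 95% interval for each of the 10 genes, in PPARα-null livers (upper point) and wild-type livers (lower point); filled points were called. In wild-type livers 6 genes lie to the left of 0 and Abcb4 to the right as filled points, and no null point is filled.

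The null and wild-type mice were also compared on the same food. These comparisons share the Wy14643 or control mice with the responses above and are not independent of them. On Wy14643, 7 of the 10 genes were called (6 higher in null livers, 1 lower), against 15.3% of all genes (7.13% higher and 8.12% lower), and mice of the 2 genotypes did not overlap for the same 7, against 27.7% of all genes. Akr1d1 was 3.06 higher on the log2 scale in null livers (8.32-fold, limma adjusted p = 1.21e-11), Abcb11 1.23 (adjusted p = 2.89e-06), Slc10a1 1.05, Baat 0.93, Slc27a5 0.88 and Cyp27a1 0.87, and Abcb4 differed by -1.16 (adjusted p = 5.07e-08). Cyp8b1 differed by -0.99 and was not called (adjusted p = 0.0204), but without wild-type replicate 3 on Wy14643 the difference was -1.40 and was called (adjusted p = 2.83e-05). Cyp7a1 differed by -0.07 (95% interval -1.34 to 1.21) and Hsd3b7 by 0.06.

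On control food 0 of the 10 genes were called between null and wild-type mice, against 0.544% of all genes, and 2 had an unadjusted p below 0.05, against 9.60% of all genes. Their median difference was -0.08, against -0.001 for all genes. The arrays of null and wild-type mice did not overlap for 3 of the 10 genes, Abcb4, Cyp27a1 and Baat, against 8.16% of all genes. Abcb4 averaged 9.59 ± 0.12 in null livers and 9.95 ± 0.13 in wild-type livers (SD, n = 4 each), a difference of -0.36 ± 0.09 (limma adjusted p = 0.140). Cyp27a1 differed by -0.24 (adjusted p = 0.453) and Baat by -0.09 (adjusted p = 0.870). Cyp7a1 differed by -0.40 with a 95% interval of -1.67 to 0.88, Cyp8b1 by 0.32 (-0.29 to 0.94) and Akr1d1 by 0.26 (-0.03 to 0.54). Hsd3b7 differed by 0.04, Slc27a5 by -0.01, Abcb11 by -0.17 and Slc10a1 by -0.07 (adjusted p of 0.665 or more for these 7 genes).

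The difference between the responses was largest for Akr1d1 among the 10 genes. Null minus wild-type responses were 2.80 ± 0.19 for Akr1d1 (limma adjusted p = 1.49e-08), 1.40 ± 0.20 for Abcb11 (adjusted p = 7.88e-05), 1.12 for Slc10a1, 1.11 for Cyp27a1, 1.02 for Baat and 0.90 for Slc27a5. Abcb4 gave -0.80 ± 0.13 (adjusted p = 4.29e-04).

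Around the 10 genes, 40 other genes of bile acid metabolism were measured in 4 lists, by role. In wild-type livers 23 of the 40 were called on Wy14643 (11 higher, 12 lower), and their median difference was -0.18. Of all genes 14.5% were called in that comparison (7.72% higher and 6.74% lower), and these shares apply to each of the 4 lists below. In null livers 0 of the 40 were called, against 0.0275% of all genes. The difference between the responses (null minus wild-type) was called for 9 of the 40 with a positive value and 7 with a negative one. The shares of all genes were 4.62% and 5.38%. It was not called for Acnat2, Slc27a2, Abcc3, Nr0b2, Cebpa, Nr5a2 and Nr1i3, although these were called in wild-type livers. The enzymes of synthesis went both ways, with 5 higher and 3 lower of 14. Cyp2c70, which makes muricholic acids in mice, was 11.89 to 12.34 in null livers on Wy14643 and 12.38 to 12.56 on control food, and fell to 8.70 to 9.20 in wild-type livers on Wy14643, against 12.58 to 12.97 on control food (difference -3.73, limma adjusted p = 3.70e-13). The largest rises on the list were of Acot8, a peroxisomal thioesterase, by 2.53 (adjusted p = 1.35e-08), Acnat2, an acyltransferase, by 2.15 (adjusted p = 2.84e-04), and Abcd3, a transporter of the peroxisomal membrane, by 1.59 (adjusted p = 7.00e-11). Among those outside the naming rule, and named after their values were seen, Hsd17b4 (1.09) and Slc27a2 (0.64) were higher and Cyp7b1 (-1.40) and Cyp2a12 (-0.77) lower.

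Of 8 transporters of the sinusoidal membrane, which faces the blood, 2 were higher and 4 lower in wild-type livers on Wy14643. The export pump Abcc4 was 2.02 to 2.75 in null livers on Wy14643 and 2.31 to 2.50 on control food, and rose to 6.79 to 7.72 in wild-type livers on Wy14643, against 2.35 to 2.85 on control food (difference 4.77, limma adjusted p = 3.35e-12). Its wild-type control mean of 2.52 lay near the highest array median of 2.24, so the size of this rise is uncertain. Among uptake carriers, Slco1a4 fell by 4.76 (adjusted p = 1.96e-12). Slco1a1 fell by 3.76 (adjusted p = 3.60e-09) and Slco2b1 fell by 1.23 (adjusted p = 4.08e-08). Slco1b2 (-0.95) was lower and Abcc3 (0.73) higher, both named after their values were seen.

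Of 6 further canalicular transporters, 2 rose and 1 fell. Abcg2, a pump for many organic anions, rose by 1.64 (limma adjusted p = 7.00e-11) and Abcb1a by 1.15 (adjusted p = 6.29e-05), while Atp8b1, a phospholipid flippase, fell by 1.60 (adjusted p = 1.13e-07). Abcb1a was dim, with means of 3.59 on Wy14643 and 2.44 on control food in wild-type livers, near the highest array median of 2.24. Abcg5 and Abcg8, the partners of the sterol exporter, were not called in either response, but were lower in null than in wild-type livers on control food, by 1.26 (adjusted p = 5.40e-04) and 1.18 (adjusted p = 7.93e-04). On Wy14643 Abcg8 was again called lower in null livers (-0.66, adjusted p = 0.00682), and Abcg5 was not called (-0.31, adjusted p = 0.239). With Hsd17b4 (-0.83), Abcg5 and Abcg8 made up the 3 of 40 called between genotypes on control food, against 0.544% of all genes.

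Of 12 regulators measured, 2 rose and 4 fell in wild-type livers on Wy14643. Fgfr4, the receptor through which the gut represses bile acid synthesis, fell by 2.06 (limma adjusted p = 3.69e-07), Nr0b2 (SHP), a repressor of Cyp7a1, by 1.37 (adjusted p = 0.00587), and Cebpa, a hepatocyte transcription factor, by 0.89 (adjusted p = 0.00219). Nr1i2 (PXR), a receptor for foreign compounds and bile acids, rose by 1.79 (adjusted p = 4.24e-06). Nr1i3 (0.88) was higher and Nr5a2 (-0.62) lower, both named after their values were seen. In null livers Nr0b2 differed by -0.61 and Nr1i3 by 0.41, neither called. The difference between the responses was not called for Nr0b2 (0.76, adjusted p = 0.379) or Nr1i3 (-0.47, adjusted p = 0.0726). Nr1h4 (FXR), the bile acid receptor, was 8.79 to 9.07 in wild-type livers on Wy14643 and 8.80 to 9.27 on control food and was not called (-0.05, adjusted p = 0.863).

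**Figure D4:**
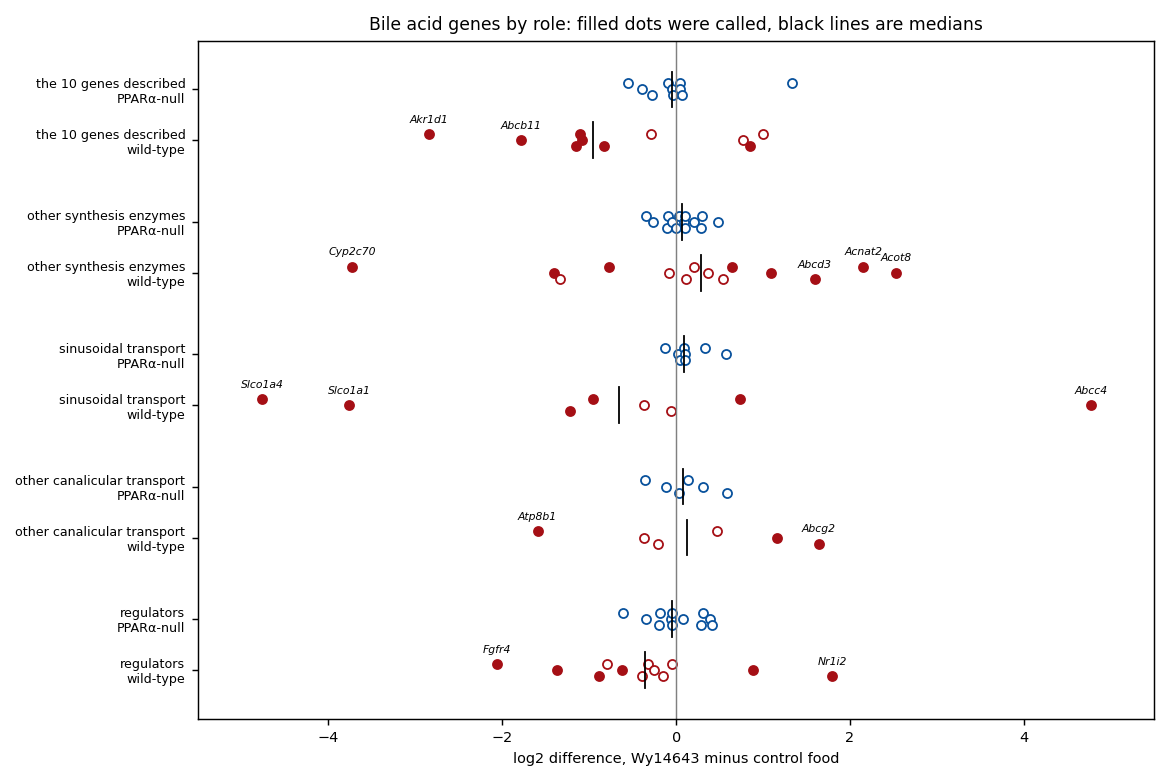
Log2 difference between Wy14643 and control food (horizontal axis) of the 10 genes and of the 4 lists of other bile acid genes, each list with PPARα-null livers above wild-type livers; filled dots were called and black lines are list medians. In wild-type livers Abcc4 lies at 4.77 and Slco1a4 at -4.76 at the ends of the scale, and all null dots are open.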

How the data were processed

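The authors deposited array intensities that GCRMA 2.20 had produced, as the submitters' processing notes name it, a method that corrects the background by the base content of the probes and equalizes the probe distributions of the arrays before probes are summarized, so that a change common to most genes can be hidden. All deposited intensities were above 0, with array medians of 4.43 to 4.72 and maxima of 18107 to 22364. They were therefore read as linear, and log2 was taken without an offset. The number of arrays (4 per group) limits the precision. Of 45101 probe sets the 64 controls were left out. A single gene was annotated for 34945, several for 932 and none for 9160, and the brightest probe set on average stood for its gene.

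The 45037 probe sets were fitted together in limma 3.58.1 (R 4.3.3), with group means over the 16 arrays and empirical Bayes moderation. Adjustment was by Benjamini-Hochberg over the 45037, and calls needed adjusted p below 0.01 and a fold above 1.5. Differences are the first group minus the second, and tests were two-sided. The fit was tested on simulated data. Each array is 1 mouse, but housing is not given in the sources used here. All 10 genes are described in each comparison, and from each further list up to 4 called genes with the largest wild-type difference were named. The 10 genes, the lists and the tests were chosen with earlier results of these data known. Motifs were matched in RefSeq promoters (GRCm38.p6). Alternatives changed the filter on low values, centring, normalization, offset, moderation, arrays fitted, replicate block, probe set rule and threshold, and left out each mouse in turn.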

Additional observations from a re-analysis of the deposited data

Results flagged for a closer look

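The response to Wy14643 differed between PPARα-null and wild-type livers, by the test of the difference itself, for 7 of the 10 genes. The null minus wild-type difference was 2.80 for Akr1d1, 1.40 for Abcb11, 1.12 for Slc10a1, 1.11 for Cyp27a1, 1.02 for Baat, 0.90 for Slc27a5 and -0.80 for Abcb4 on the log2 scale.

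A mouse far from the other 3 of its group, relative to the spread of the 4, was found in 4 of 60 groups of values, where chance gives about 1 in 20. These were Akr1d1 in a null mouse on Wy14643 (10.09), Slc10a1 in a null mouse on control food (12.36) and in a wild-type mouse on Wy14643 (11.51), and the other Slc10a1 probe set, 1450261_a_at, in a null mouse on Wy14643 (11.09). The null mouse at 12.36 stood beside others at 12.28 to 12.29, a small step on the log2 scale. The wild-type mouse at 11.51 still lay below the 12 mice of the other groups.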

How the results depend on the processing

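Under the alternatives that kept all mice, 483 differences of the 10 genes kept direction and call, 3 were called in addition, 1 lost its call and 3 changed sign. Without 1 mouse, 458 kept both, 3 were called in addition and 19 changed sign. The additional calls were all of Cyp8b1: without wild-type replicate 3 on Wy14643 (given in the report), with only probe sets of a mean above 6 (null minus wild-type on Wy14643, adjusted p = 0.00938) and at an adjusted p below 0.05 with any fold. With the median of a gene's probe sets, Cyp27a1 between genotypes on Wy14643 had a difference of 0.49, below the fold limit. The counts of the 10 genes and of the 40 other bile acid genes called stayed within 1.5 times. Over the whole array the wild-type response had 4801 probe sets called, against 2417 with a mean above 6, 3166 with an offset of 16 and 8991 at the looser threshold, and between genotypes on Wy14643 4991, against 2515, 3306 and 9369. The null response had 6, against 20 with trend and robust moderation, 1 from its own groups alone, 32 at the looser threshold and 2 to 11 without 1 mouse. At the looser threshold there were 284 between genotypes on control food, against 159, and 5438 between responses, against 3170.

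The sign changes were of uncalled differences, and the cause was not tested. They were Akr1d1 in null livers (0.056 with the median of probe sets), Hsd3b7 between responses (-0.025 after centring on array medians) and Slc27a5 on control food between genotypes (0.02 after quantile normalization). Without 1 mouse, Cyp7a1 ranged from -0.437 to 0.324 between genotypes on Wy14643, from -0.907 to 0.167 on control food and from -0.235 to 0.839 between responses. Hsd3b7 ranged from -0.05 to 0.194 between genotypes on Wy14643 and from -0.094 to 0.15 between responses. In null livers Cyp27a1 ranged from -0.084 to 0.016, Akr1d1 from -0.142 to 0.074 and Abcb4 from -0.004 to 0.087, and Slc27a5 on control food between genotypes ranged from -0.038 to 0.031.

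With the replicate number as a block, 7 of the 10 genes were called in the wild-type response, 0 in the null response, 7 between genotypes on Wy14643, 0 on control food and 7 between responses, as without it. Same-numbered mice deviated with correlations of -0.12 to 0.19, above 0.1 in 6 of 24 pairs. A mouse was closest to its own number in 21 of 48 comparisons with the 4 mice of another group. That is more often than an even choice among 4 mice would give on average. The main fit did not take the numbers as pairs, and whether they mark pairs was not tested.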
